A study of Mus musculus with 12 samples.

Results

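The constitutive proteasome genes were taken as every row of the deposited count table whose symbol is Psma, Psmb, Psmc or Psmd followed by a number, without Psmb8, Psmb9 and Psmb10, the catalytic subunits of the immunoproteasome. This gave 36 genes of 55536. They encode the 7 proteins of the alpha ring and the 7 of the beta ring of the standard core particle, 6 ATPases, 3 scaffolds or ubiquitin receptors and 8 lid proteins of the regulatory particle, 3 chaperones of its base, and 2 tissue-specific core proteins, Psma8 of testis and Psmb11 of thymus. The symbol rule thus takes in chaperones as well as subunits, and it misses the small lid protein Sem1 and the receptor Adrm1, which are given with the other genes of the pathway.

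The proteasome is the protease that removes ubiquitin-tagged proteins. In its core particle, a stack of rings, the outer alpha rings gate the entrance and 3 subunits of each inner beta ring cut peptide bonds, and in its regulatory particle the ATPase ring of the base unfolds the substrate while the lid strips off ubiquitin. Interferon-gamma is known to induce alternative catalytic subunits that replace the constitutive ones during assembly, which changes the peptides offered on class I molecules, and pancreatic beta cells are among the cells studied for this exchange.

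RNA was measured by sequencing in pancreatic islets, the hormone-secreting cell clusters of the pancreas, from 16-week-old mice of a mixed C57BL/6J background. Cytokine-treated islets had been cultured for 24 h in medium that held IFN-gamma, IL-1beta and TNF-alpha, and untreated islets had not. The islets labelled bKO carry the genotype PTPN2 -/- and are called Ptpn2-bKO in the protocol, and the control islets carry the genotype fl/fl and are titled PTPN2 +/+. Ptpn2 encodes a tyrosine phosphatase that acts in cytokine signalling. There were 3 libraries in each of the 4 groups, bKO with cytokines, bKO untreated, control with cytokines and control untreated. The protocol names 3 mice per genotype, so treated and untreated libraries share mice, which ones is not given, and p-values here take all 12 libraries as independent. Which promoter drives the Cre is not stated in these labels.

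Libraries held 47064061 to 107515565 counts, and the 36 genes took 187168 to 453178 of them. Levels are given as CPM, counts relative to the scaled size of the library. Ptpn2 RNA had 110.5, 84.2 and 107 CPM in cytokine-treated islets labelled bKO, against 88.8, 90.4 and 78.3 CPM in cytokine-treated control islets, and 36.7, 33.8 and 35.5 CPM in untreated islets labelled bKO, against 30.3, 31.4 and 31.4 CPM in untreated control islets. It was thus not lower in the islets labelled bKO (log2 difference 0.23, adjusted p = 0.26 with cytokines, and 0.19, adjusted p = 0.989 untreated, edgeR quasi-likelihood test). A total over the whole gene does not check the loss of an exon, so these counts leave the label unchecked. Replicate 2 of the cytokine-treated islets labelled bKO stood apart from its group, with chi-square values per degree of freedom of 213 and 167.5 against the other 2 libraries, which differed from each other by a value of 23.7. Replicate 2 of the cytokine-treated control islets did so by less, with 82.1 and 63.09 against the other 2, which differed by 31.15. It was the deepest library, at 107515565 counts, and this chi-square value grows with the number of counts. Summed levels of 10 macrophage markers were 570.3 to 747 CPM in cytokine-treated and 185 to 250.4 CPM in untreated islets labelled bKO, and 533 to 629.5 CPM in cytokine-treated and 189 to 229 CPM in untreated control islets. Adjusted p-values were under 0.05 and the change upward for 9 of these 10 in both genotypes, and for all 8 endothelial markers the change was downward in both. Beta cell identity genes fell (7 of 10 in both genotypes), while Ins1, Ins2 and Iapp did not pass the test. Alpha cell markers were called lower for 5 of 5 in both genotypes, delta cell markers for 2 of 3 in islets labelled bKO and 3 of 3 in control islets, and acinar markers for 5 of 12 in islets labelled bKO and 10 of 12 in control islets. Stellate cell markers were called higher for 4 of 6 in islets labelled bKO and 1 of 6 in control islets. Of 5 ductal markers 1 was called higher and 0 lower in islets labelled bKO (median log2 0.43), and 1 higher and 3 lower in control islets (median log2 -0.73). Of all genes tested, 28.8% were called higher and 33.6% lower in islets labelled bKO, and 26.8% and 33.9% in control islets. A count of 1 of 5 or 1 of 6 called higher is thus no more than the share of all genes. The part of the marker shifts in the results that follow was not tested, and in whole islets a change in RNA per cell cannot be told apart from a change in cell numbers.

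Cytokines raised most of the constitutive proteasome genes by a modest amount. Of the 35 genes that passed the filter on low counts, 32 rose and 1 fell in islets labelled bKO, and 29 rose and 1 fell in control islets (edgeR quasi-likelihood test, Benjamini-Hochberg adjusted p under 0.05). With libraries scaled by their totals alone 25 rose in islets labelled bKO and 21 in control islets, and Psmb7, called higher in control islets, then lay below 0. Among all 19800 genes tested, 28.8% were called higher and 33.6% lower in islets labelled bKO, and 26.8% were called higher and 33.9% lower in control islets. With library totals alone these were 4000 higher and 8692 lower, against 5711 and 6647, in islets labelled bKO, and 3737 higher and 8998 lower, against 5298 and 6704, in control islets. The median log2 fold change of the 35 was 0.49 in both genotypes, where that of all genes was -0.06 in islets labelled bKO and -0.10 in control islets. The median of all genes moves with the scaling and was -0.29 in islets labelled bKO and -0.33 in control islets with library totals alone. Relative to it the median of the 35 was 0.55 in islets labelled bKO and 0.59 in control islets, a difference that a change of scaling, which shifts all genes alike, leaves nearly as it is. All 3 treated libraries lay above all 3 untreated ones for 32 of the 35 in each genotype, against 29.8% of all genes in islets labelled bKO and 30.5% in control islets. They lay below for 1 of the 35, against 35.3% and 40.0% of all genes. When replicate 2 of the bKO cytokine group was left out, 32 rose and 1 fell in each genotype, with medians of 0.58 in islets labelled bKO and 0.56 in control islets.

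The genes called higher were 29 in both genotypes and 3 in islets labelled bKO alone (Psmb3, Psmc6 and Psmd9), whose difference in response between genotypes did not pass the test. Psmd6 was the gene called lower in both, and Psma8 and Psmd1 were called in neither. Within groups the libraries were close. The coefficient of variation over the 3 libraries had a median over 34 genes (without Psma8 and Psmb11) of 6.05% in treated and 5.54% in untreated islets labelled bKO, and of 5.91% in treated and 2.45% in untreated control islets. The widest was that of Psmb3 in treated islets labelled bKO, at 15.4%. Many of the 34 genes deviated together within a library. Replicate 3 of the treated controls was lowest of its group for 26, and replicate 3 of the untreated controls highest for 25. In untreated islets labelled bKO, replicate 3 was highest for 23 and replicate 2 lowest for 22. In treated islets labelled bKO, replicate 2 was highest for 18 and replicate 3 lowest for 15. The plot of log2 fold changes by part of the particle gives the 34 genes in order.

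**Figure D1:**
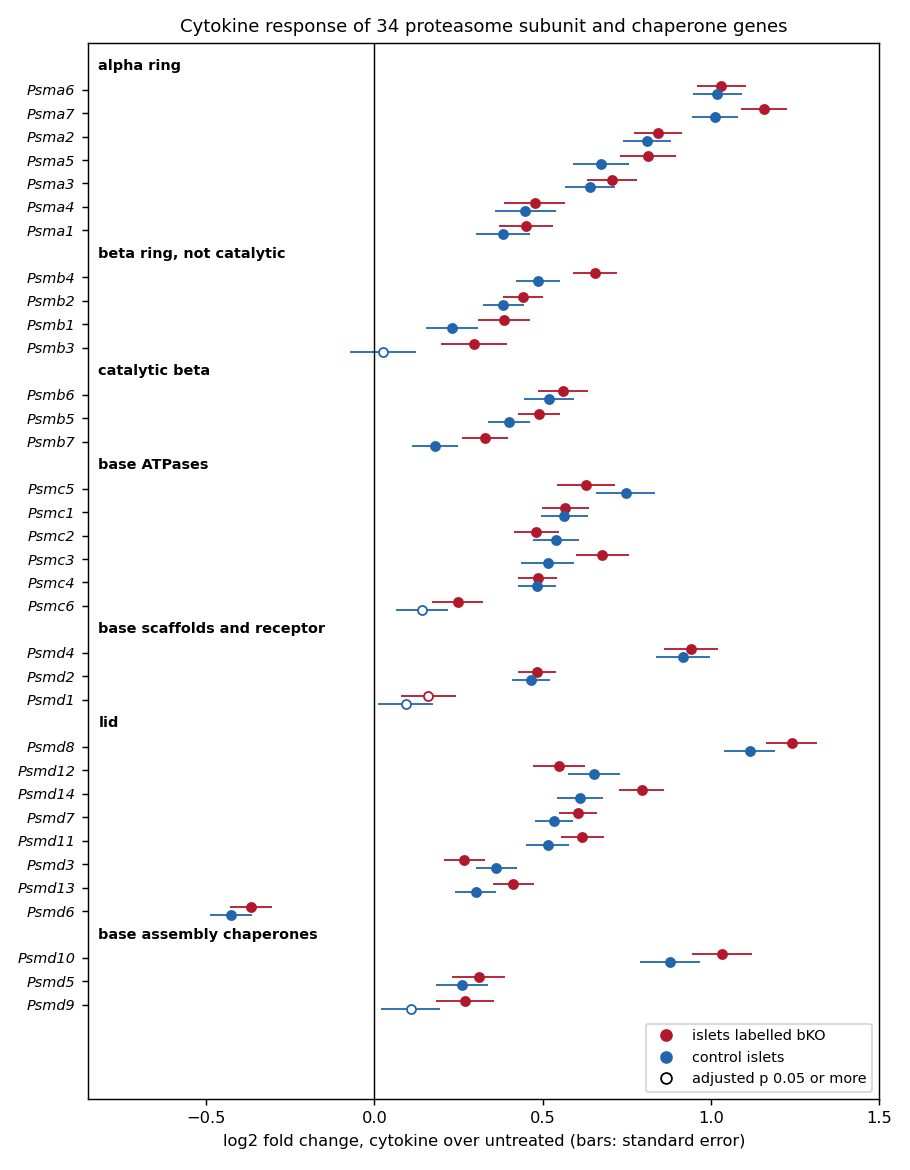
Log2 fold change of 34 genes (horizontal axis, cytokine over untreated, bars are standard errors, n = 3 libraries a group) in islets labelled bKO (red) and control islets (blue), grouped by part of the particle and ordered by the value in control islets, with open points where the adjusted p is 0.05 or more. Psmd8 lies farthest to the right (1.24 and 1.11) and Psmd6 is the one gene called lower (-0.37 and -0.43). With libraries scaled by totals alone, Psmb3, Psmb7, Psmc6, Psmd1 and Psmd9 lie below 0 in control islets and Psmd1 in islets labelled bKO.

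All 7 genes of the alpha ring, the ring that gates the core and docks the regulatory particle, rose in both genotypes, with a median log2 fold change of 0.81 in islets labelled bKO and 0.67 in control islets (with library totals alone 7 and 5 were called). The 2 with the smallest adjusted p were Psma7 and Psma6. Psma7 had 286, 263 and 262 CPM in cytokine-treated islets labelled bKO, against 120.5, 118 and 125 CPM in untreated islets labelled bKO. In the other genotype it had 260.3, 259 and 229 CPM in cytokine-treated control islets, against 124, 122 and 125 CPM in untreated control islets. No treated library overlapped an untreated one, and the log2 fold change was 1.157 (standard error 0.068, adjusted p = 8.8e-08) in islets labelled bKO and 1.01 (standard error 0.068, adjusted p = 2.6e-07) in control islets. Psma6 had 157, 141 and 141 CPM in cytokine-treated islets labelled bKO, against 70.8, 71.0 and 73.2 CPM in untreated islets labelled bKO, and 151, 155 and 132 CPM in cytokine-treated control islets, against 72.2, 70.2 and 73.9 CPM in untreated control islets. This was about a doubling in each genotype, with a fold of 2.04 in islets labelled bKO and 2.03 in control islets (adjusted p = 3.5e-07 and 4.3e-07). Of the others, Psma2 and Psma5 had log2 fold changes of 0.84 and 0.81 in islets labelled bKO and 0.81 and 0.67 in control islets. Psma3, Psma4 and Psma1 had the smaller values, 0.71, 0.48 and 0.45 in islets labelled bKO and 0.64, 0.45 and 0.38 in control islets. Within this one ring, whose proteins are present in equal number, log2 values thus ran from 0.45 to 1.157 in islets labelled bKO and from 0.38 to 1.01 in control islets.

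The 4 genes of the beta ring without a catalytic site had log2 fold changes with medians of 0.41 in islets labelled bKO, where all 4 rose, and 0.31 in control islets, where 3 did (2 and 1 with library totals alone). Psmb4 had 199, 196 and 192 CPM in cytokine-treated islets labelled bKO, against 116, 124 and 134 CPM in untreated islets labelled bKO. In the controls it had 188, 181 and 172 CPM in cytokine-treated control islets, against 128, 126 and 133 CPM in untreated control islets. Its log2 fold change came to 0.65 (standard error 0.066, adjusted p = 5.4e-06) in islets labelled bKO and 0.49 (standard error 0.065, adjusted p = 6e-05) in control islets, with no overlap between treated and untreated libraries. Psmb2 had 109.5, 115 and 113 CPM in cytokine-treated islets labelled bKO, against 85.4, 79.1 and 83.7 CPM in untreated islets labelled bKO, and 113, 105 and 103 CPM in cytokine-treated control islets, against 79.9, 80.7 and 85.1 CPM in untreated control islets, a fold of 1.36 in islets labelled bKO and 1.304 in control islets. Psmb1 had log2 fold changes of 0.38 (standard error 0.077, adjusted p = 0.00107) in islets labelled bKO and 0.23 (standard error 0.077, adjusted p = 0.0218) in control islets. The call in control islets was lost without replicate 1 of the treated controls (0.16, adjusted p = 0.102) and without replicate 2 (0.20, adjusted p = 0.0806) or 3 (0.24, adjusted p = 0.051) of the untreated controls. Psmb3, named after its values were seen, had 60.4, 81.2 and 66.6 CPM in cytokine-treated islets labelled bKO, against 56.6, 54.2 and 58.9 CPM in untreated islets labelled bKO, and 63.5, 57.5 and 57.3 CPM in cytokine-treated control islets, against 57.8, 56.0 and 61.2 CPM in untreated control islets. The treated bKO libraries all lay above the untreated ones, the highest being replicate 2, and in controls the groups overlapped. Its log2 fold change was 0.30 (standard error 0.098, adjusted p = 0.0204) in islets labelled bKO and 0.03 (standard error 0.098, adjusted p = 0.833) in control islets, the first no longer called without replicate 1 (adjusted p = 0.051) or 2 (adjusted p = 0.0762) of the untreated bKO libraries.

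The 3 catalytic subunits rose in both genotypes, with medians of 0.49 in islets labelled bKO and 0.40 in control islets (2 of 3 in each with library totals alone). Psmb6, which cuts after acidic residues, had 188, 169 and 177 CPM in cytokine-treated islets labelled bKO, against 128, 114 and 120.5 CPM in untreated islets labelled bKO, and 177, 187 and 158 CPM in cytokine-treated control islets, against 119.6, 121 and 124 CPM in untreated control islets. Its log2 fold change was 0.56 (standard error 0.075, adjusted p = 5.3e-05) in islets labelled bKO and 0.52 (standard error 0.075, adjusted p = 0.0001) in control islets. Psmb5, which carries the chymotrypsin-like site that proteasome inhibitor drugs bind best, had 74.7, 74.3 and 70.7 CPM in cytokine-treated islets labelled bKO, against 53.5, 50.2 and 53.0 CPM in untreated islets labelled bKO, and 72.4, 67.1 and 63.3 CPM in cytokine-treated control islets, against 51.9, 50.3 and 51.7 CPM in untreated control islets. For both genes every treated library lay above every untreated one. Psmb5 changed by 0.49 (standard error 0.063, adjusted p = 3.9e-05) in islets labelled bKO and 0.40 (standard error 0.063, adjusted p = 0.00019) in control islets. Psmb7, which carries the trypsin-like site, had 87.9, 96.4 and 96.3 CPM in cytokine-treated islets labelled bKO, against 73.7, 70.7 and 79.0 CPM in untreated islets labelled bKO, and 92.3, 85.2 and 83.7 CPM in cytokine-treated control islets, against 78.4, 73.2 and 78.9 CPM in untreated control islets. It changed by log2 0.33 (standard error 0.069, adjusted p = 0.0014) in islets labelled bKO and 0.18 (standard error 0.069, adjusted p = 0.0386) in control islets. The call in control islets was lost under more left-out libraries than that of any other gene of the list. It went with the adjusted p between 0.051 and 0.149 on leaving out any library of the control groups but treated replicate 3, and also without treated replicate 3 or untreated replicate 1 of the bKO libraries, with log2 values of 0.14 to 0.20. With library totals alone it was -0.05. Psmb7 shares 405 exon bases with Nek6 on the opposite strand, and whether counting used strand is not given. Such overlaps were also found for other genes of the list, among them Psmd13 with Sirt3 (342 bases) and Psmc3 with Slc39a13 (215 bases). Nek6, Sirt3 and Slc39a13 had means of 1403, 516 and 1910 counts a library.

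Each catalytic subunit was set against the interferon-induced subunit that replaces it, as the share of the pair's counts per base of transcript. At the beta1 position Psmb9 made up 35.4%, 37.6% and 34.4% of the pair with Psmb6 in cytokine-treated islets labelled bKO, against 6.43%, 6.53% and 5.66% in untreated ones. In control islets it made up 41.8%, 40.2% and 40.7% with cytokines, against 5.17%, 5.42% and 5.51% untreated. Per base of transcript the constitutive subunit thus kept the larger part at this position in every library. This turns with the scale, since of counts not divided by length Psmb9 made up 48.6% in treated islets labelled bKO and 54.0% in treated control islets on average. At beta2, Psmb10 against Psmb7, the mean shares were 69.8% in treated and 30.3% in untreated islets labelled bKO, and 72.6% in treated and 26.6% in untreated control islets. At beta5, Psmb8 against Psmb5, they were 72.3%, 26.3%, 74.7% and 24.1% in the same order of groups. At both of these the immunoproteasome subunit was the minor one in each untreated library and the major one in each treated library. Between treated and untreated islets the shares did not overlap at any position, with p = 0.1 for each in an exact two-sided permutation test, the smallest that 3 against 3 libraries allow (0.15 adjusted over 12 comparisons). Treated islets labelled bKO differed from treated controls by -5.07 percentage points at beta1 (exact permutation p = 0.1), with no overlap, and by -2.81 points at beta2 and -2.40 points at beta5, with overlap (exact permutation p = 0.3 and 0.2). Untreated, the share at beta1 was 0.840 points higher in islets labelled bKO, without overlap (exact p = 0.1). These are shares of RNA, not of particles, and of whole islets. The sum of the macrophage markers, cells known to express the immunoproteasome, moved in the same direction and its part in the shares was not tested. Psmb9 overlaps Tap1 by 212 exon bases on the opposite strand, and Tap1 had a mean of 16401 counts a library.

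**Figure D2:**
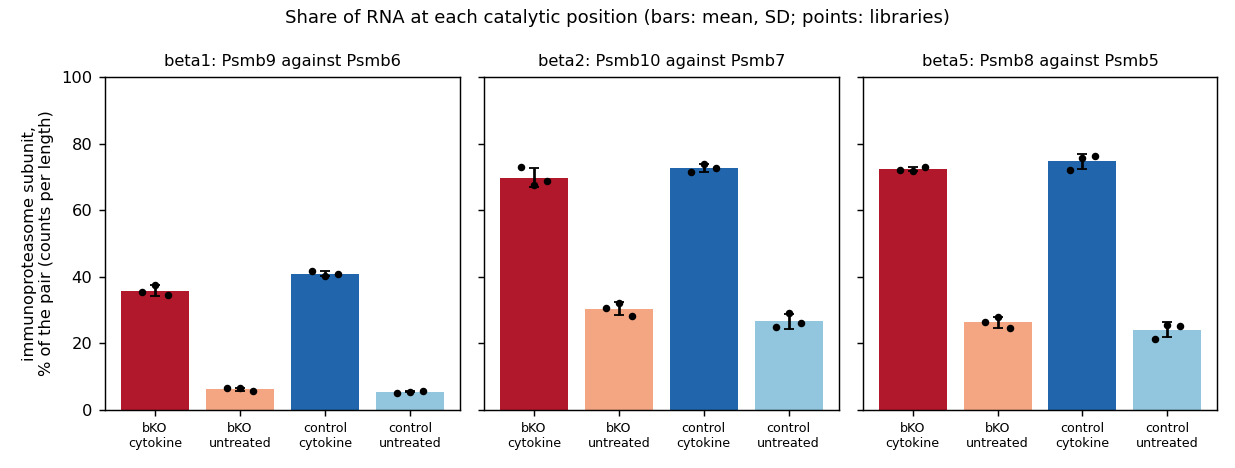
Share of the immunoproteasome subunit in the counts per length of each catalytic pair (vertical axis, %), by group, with bars for the mean, error bars for the SD and points for the 3 libraries. Psmb9 stays at 41.8% or below in every treated library, whereas Psmb10 is at 67.6% or above and Psmb8 at 71.9% or above in all of them.

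In the base of the regulatory particle, whose 6 ATPases form the ring that unfolds substrates, all 6 rose in islets labelled bKO and 5 in control islets, with a median log2 fold change of 0.53 in both (5 each with library totals alone). Psmc5 and Psmc4 had the smallest adjusted p of the 6 in control islets. Psmc5 had 163, 133 and 143 CPM in cytokine-treated islets labelled bKO, against 92.01, 92.7 and 99.2 CPM in untreated islets labelled bKO, and 150.2, 176 and 148 CPM in cytokine-treated control islets, against 93.8, 92.7 and 96.3 CPM in untreated control islets. Psmc4 had 138, 136 and 134 CPM in cytokine-treated islets labelled bKO, against 99.3, 93.2 and 99.2 CPM in untreated islets labelled bKO, and 136, 139.5 and 133 CPM in cytokine-treated control islets, against 92.6, 97.9 and 102 CPM in untreated control islets. Treated and untreated libraries were apart for both. The log2 fold change was 0.63 (standard error 0.087, adjusted p = 7.1e-05) in islets labelled bKO and 0.75 (standard error 0.087, adjusted p = 2e-05) in control islets for Psmc5 and 0.48 (standard error 0.057, adjusted p = 1.9e-05) in islets labelled bKO and 0.48 (standard error 0.057, adjusted p = 2.2e-05) in control islets for Psmc4. Psmc1, Psmc2 and Psmc3 lay between 0.48 and 0.68 in islets labelled bKO and between 0.51 and 0.56 in control islets. Psmc6, the one ATPase gene that was not called in controls, had log2 fold changes of 0.25 (standard error 0.076, adjusted p = 0.0143) in islets labelled bKO and 0.14 (standard error 0.076, adjusted p = 0.128) in control islets. It was called in controls without replicate 2 of the treated bKO libraries (0.21, adjusted p = 0.0124), and the call in islets labelled bKO was lost without replicate 1 (0.22, adjusted p = 0.0518) or 2 (0.22, adjusted p = 0.0593) of the untreated bKO libraries.

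The scaffolds and the receptor of the base parted. Psmd4, the subunit that binds ubiquitin chains through its interaction motifs, had 184, 152 and 170.3 CPM in cytokine-treated islets labelled bKO, against 85.8, 85.6 and 92.5 CPM in untreated islets labelled bKO, and 162, 185 and 167 CPM in cytokine-treated control islets, against 86.6, 92.01 and 93.9 CPM in untreated control islets. That was close to a doubling with no overlap, and the log2 fold change was 0.94 (standard error 0.081, adjusted p = 1.6e-06) in islets labelled bKO and 0.92 (standard error 0.081, adjusted p = 2.1e-06) in control islets. Psmd2, the large scaffold that receives ubiquitin-like domains of shuttle proteins, had the highest CPM of the list in every group, with 365, 358 and 349.5 CPM in cytokine-treated islets labelled bKO, against 255, 249 and 263 CPM in untreated islets labelled bKO, and 349, 350.2 and 348 CPM in cytokine-treated control islets, against 252, 245 and 261 CPM in untreated control islets. On the log2 scale it changed by 0.48 (standard error 0.056, adjusted p = 1.8e-05) in islets labelled bKO and 0.47 (standard error 0.056, adjusted p = 2.6e-05) in control islets. Psmd1, the other large scaffold, had 148, 176 and 148 CPM in cytokine-treated islets labelled bKO, against 132, 139 and 152 CPM in untreated islets labelled bKO, and 164, 149 and 151 CPM in cytokine-treated control islets, against 147, 139 and 149 CPM in untreated control islets. Its treated and untreated libraries overlapped in islets labelled bKO, and in controls they lay close without overlap. The log2 fold changes were 0.16 (standard error 0.082, adjusted p = 0.109) in islets labelled bKO and 0.09 (standard error 0.082, adjusted p = 0.346) in control islets, and the second passed without replicate 2 of the treated bKO libraries (0.16, adjusted p = 0.0431).

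Leaving out Psma8, the lid held both the highest and the lowest log2 fold change. Of its 8 genes 7 rose and 1 fell in each genotype, with medians of 0.58 in islets labelled bKO and 0.52 in control islets (6 and 5 rose with library totals alone). Psmd8, in yeast the last subunit to join the lid, had 286, 255 and 269 CPM in cytokine-treated islets labelled bKO, against 123, 108 and 112 CPM in untreated islets labelled bKO. In controls it had 270.1, 282 and 257 CPM in cytokine-treated control islets, against 124, 117 and 132 CPM in untreated control islets. With no overlap and a fold of 2.36 in islets labelled bKO and 2.17 in control islets, this was the largest change of the 35 genes by log2 fold change in both genotypes, at 1.24 (standard error 0.076, adjusted p = 1.2e-07) in islets labelled bKO and 1.11 (standard error 0.076, adjusted p = 2.9e-07) in control islets. Psmd6, a lid subunit of the same PCI-domain family, had 57.9, 62.1 and 60.1 CPM in cytokine-treated islets labelled bKO, against 73.7, 76.5 and 82.0 CPM in untreated islets labelled bKO, and 61.8, 59.2 and 56.0 CPM in cytokine-treated control islets, against 78.5, 77.8 and 81.4 CPM in untreated control islets. Every treated library was lower than every untreated one. The log2 fold change was -0.37 (standard error 0.063, adjusted p = 0.00036) in islets labelled bKO and -0.43 (standard error 0.063, adjusted p = 0.00012) in control islets, and the direction and the call held under each scaling and without any single library. The ratio of Psmd8 to Psmd6 counts was 4.51 in treated and 1.48 in untreated islets labelled bKO, and 4.58 in treated and 1.57 in untreated control islets. The pair was chosen after its values were seen, as the gene with the largest rise and the one called lower, so the ratio is a description with no test.

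Psmd14, the metalloprotease that removes ubiquitin chains from substrates, had 85.1, 90.7 and 80.1 CPM in cytokine-treated islets labelled bKO, against 47.2, 48.2 and 52.3 CPM in untreated islets labelled bKO, and 82.3, 77.7 and 74.5 CPM in cytokine-treated control islets, against 51.7, 50.3 and 51.6 CPM in untreated control islets. Psmd7, its partner in the lid, had 143, 144 and 145 CPM in cytokine-treated islets labelled bKO, against 98.8, 90.7 and 95.4 CPM in untreated islets labelled bKO, and 143, 134 and 132 CPM in cytokine-treated control islets, against 93.2, 93.5 and 95.5 CPM in untreated control islets. Neither gene overlapped between treated and untreated islets. The log2 fold change of Psmd14 was 0.79 (standard error 0.068, adjusted p = 1.5e-06) in islets labelled bKO and 0.61 (standard error 0.068, adjusted p = 1.3e-05) in control islets, and that of Psmd7 was 0.60 in islets labelled bKO and 0.53 in control islets (adjusted p = 3.1e-06 and 9.2e-06). Psmd11 and Psmd12 had log2 values of 0.62 and 0.55 in islets labelled bKO and 0.51 and 0.65 in control islets. Psmd13 and Psmd3 had 0.41 and 0.27 in islets labelled bKO and 0.30 and 0.36 in control islets, the lowest of the lid genes that rose.

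**Figure D3:**
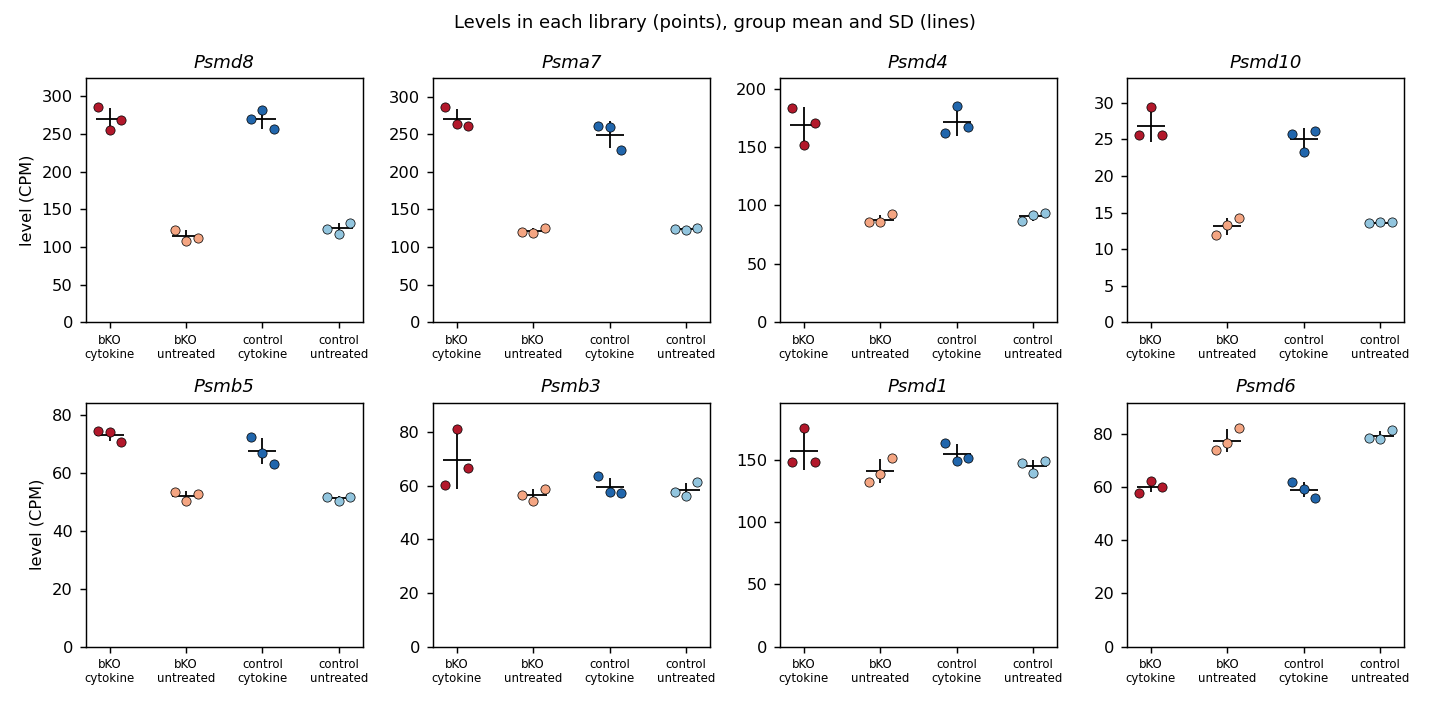
Level of 8 genes (vertical axis, CPM, from 0) in each library of the 4 groups, with points for libraries, a line for the mean and a bar for the SD. Psmd8, Psma7, Psmd4 and Psmd10 are close to 2-fold higher in treated libraries, Psmb5 is higher by a smaller amount, Psmb3 is higher without overlap in islets labelled bKO and overlaps in control islets, Psmd1 overlaps in islets labelled bKO and lies close in control islets, and Psmd6 is lower in every treated library (55.96 to 62.1 CPM against 73.7 to 81.97).

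The 3 chaperones that assemble the base and leave the finished particle had the lowest mean CPM of the 34 genes without Psma8 and Psmb11. Psmd10, also called gankyrin, which binds the ATPase Psmc4, had 25.6, 29.4 and 25.6 CPM in cytokine-treated islets labelled bKO, against 11.9, 13.3 and 14.2 CPM in untreated islets labelled bKO, and 25.7, 23.3 and 26.1 CPM in cytokine-treated control islets, against 13.5, 13.7 and 13.7 CPM in untreated control islets. It was close to 2-fold higher with no overlap, and its log2 fold change was 1.03 (standard error 0.089, adjusted p = 1.6e-06) in islets labelled bKO and 0.88 (standard error 0.088, adjusted p = 6.4e-06) in control islets. Psmd5 had 36.6, 41.2 and 35.9 CPM in cytokine-treated islets labelled bKO, against 28.6, 30.5 and 32.6 CPM in untreated islets labelled bKO, and 39.98, 35.5 and 39.3 CPM in cytokine-treated control islets, against 31.2, 32.3 and 32.2 CPM in untreated control islets. The groups did not overlap, and the log2 fold change was 0.31 (standard error 0.079, adjusted p = 0.00479) in islets labelled bKO and 0.26 (standard error 0.078, adjusted p = 0.013) in control islets, neither of which was called with library totals alone. Psmd9 had 29.4, 33.1 and 27.4 CPM in cytokine-treated islets labelled bKO, against 25.9, 23.3 and 25.4 CPM in untreated islets labelled bKO, and 30.6, 26.3 and 26.8 CPM in cytokine-treated control islets, against 26.2, 25.6 and 25.8 CPM in untreated control islets. Its treated libraries lay just above the untreated ones. The log2 fold change was 0.27 (standard error 0.087, adjusted p = 0.0182) in islets labelled bKO and 0.11 (standard error 0.087, adjusted p = 0.303) in control islets. The first was lost without replicate 2 of the untreated bKO libraries (0.22, adjusted p = 0.0823), and the second passed without replicate 2 of the treated bKO libraries (0.18, adjusted p = 0.0452). Psmd9 shares 25.5% of its exon bases with the lincRNA Gm26745, which had a mean of 0.083 counts.

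Summed over the 36 genes, the share of the scaled counts was 0.475% ± 0.0086 in treated and 0.317% ± 0.012 in untreated islets labelled bKO, and 0.462% ± 0.018 in treated and 0.320% ± 0.0071 in untreated control islets (SD, n = 3 each). This was 1.502 times as much in islets labelled bKO and 1.44 times in controls, with no overlap (exact permutation p = 0.1, the smallest possible, and 0.182 adjusted over the sums tested). The same ratio, in islets labelled bKO and in controls, was highest for the alpha ring among the constitutive parts, at 1.77 and 1.69 times. It was 1.39 and 1.32 times for the catalytic genes, 1.45 and 1.44 times for the ATPases and 1.49 and 1.45 times for the lid. For the beta ring without a catalytic site it was 1.39 and 1.25 times. The scaffolds and receptor had 1.41 and 1.38 times and the base chaperones 1.38 and 1.28 times. All of these ratios rest on the scaling. By library totals alone, the 36 genes took 0.430% to 0.461% of counts in treated and 0.333% to 0.358% in untreated islets labelled bKO. In control islets they took 0.416% to 0.433% in treated and 0.334% to 0.354% in untreated ones. These were smaller rises, still without overlap. Over the same treatment the 3 immunoproteasome genes together stood at 9.07 times their untreated scaled sum in islets labelled bKO and 11.4 times in controls. Their sum was 0.0760% in treated and 0.00838% in untreated islets labelled bKO, and 0.0827% in treated and 0.00725% in untreated control islets. In treated islets it thus exceeded the sum of the 3 constitutive catalytic genes, at 0.0345% in islets labelled bKO and 0.0329% in controls.

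**Figure D4:**
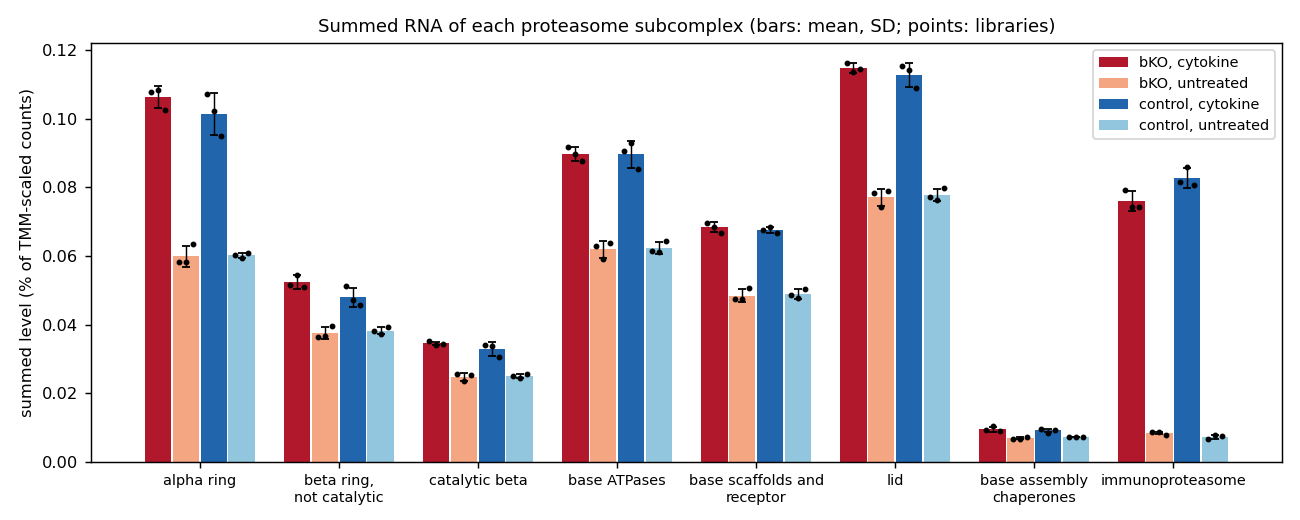
Summed level of each part of the proteasome and of the immunoproteasome (vertical axis, % of scaled counts) in the 4 groups, with bars for the mean, error bars for the SD and points for the 3 libraries. In every part the treated libraries lie above the untreated ones of their genotype. The bars of the base chaperones are the lowest of the constitutive parts in each group. Untreated, they stand at 0.00685% in islets labelled bKO and 0.00715% in control islets. The untreated bars of the immunoproteasome are about as low, at 0.00838% and 0.00725%.

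Per kilobase of the principal transcript, levels of the 34 widely expressed genes ran from 6.95 CPM per kb for Psmd5 to 151.4 for Psmb6 in untreated islets labelled bKO. They ran from 7.26 to 152 for the same genes in untreated control islets. The order of genes on this scale rests on the choice of length, since counts are per gene. The merged exons of Psma7 hold 3071 bases, against 914 in its principal transcript. Those of Psmb6 hold 1872 against 798, and those of Psmd8 3057 against 1540. The order by merged exons was not worked out. In treated islets Psma7 was highest, at 296 CPM per kb in islets labelled bKO and 273 in controls. Within the regulatory particle the highest over the lowest gene came to 4.5 times in treated and 2.70 times in untreated islets labelled bKO, and to 4.73 times in treated and 2.57 times in untreated control islets. Psmd2 was the highest there when untreated and Psmd8 when treated. On this scale the highest and lowest genes of the regulatory particle were thus farther apart with cytokines, by a description of these 4 means.

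Of the tissue-specific forms, Psma8, which replaces Psma7 in male germ cells, had 4 to 20 counts a library, or 0.188, 0.236 and 0.156 CPM in treated and 0.306, 0.131 and 0.0619 in untreated islets labelled bKO, and 0.0995, 0.0825 and 0.180 CPM in treated and 0.188, 0.235 and 0.143 in untreated control islets. All groups overlapped and no comparison was called. The sperm genes Prm2 and Tnp1 were at 0 in every library. Psmb11, the subunit of the thymus form made by cortical epithelial cells, had 0 to 5 counts a library and did not pass the filter. Its counts summed over 3 libraries were 2 in treated and 6 in untreated islets labelled bKO, and 6 in treated and 8 in untreated control islets.

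No constitutive proteasome gene was called between genotypes. With cytokines 0 of 35 were called (1, Psmb3, at an unadjusted p under 0.05), where 0.141% of all genes were called higher and 0.0909% lower in islets labelled bKO. Untreated, 0 of 35 were called and 0 had an unadjusted p under 0.05, where 0.0758% of all genes were called higher and 0.0% lower. DESeq2 and limma-voom also called 0 in each. In the edgeR test an unadjusted p under 0.05 was held by 3530 of all 19800 genes with cytokines and by 1099 untreated. All 3 bKO libraries lay above all 3 controls for Psma7, Psmb4 and Psmd7 with cytokines and for Psmd3 untreated, and below for none. Of all genes, 6.94% lay above and 10.8% below with cytokines, and 8.24% above and 7.94% below untreated. The log2 differences of 34 genes ran from -0.11 to 0.23 with cytokines and from -0.12 to 0.09 untreated, and their 95% confidence intervals reached from -0.30 to 0.44 and from -0.29 to 0.24. The cytokine response itself differed between genotypes by -0.12 to 0.27 on the log2 scale (bKO minus control), with 0 of 35 genes called, as for all genes (0.0% in either direction). The value was above 0 for 30 of the 34, with a median of 0.07, and the intervals reached from -0.39 to 0.57. The smallest adjusted p, 0.495, was that of Psmb3. Acinar markers summed to 837 to 3131 CPM in treated islets labelled bKO, against 967 to 1585 CPM in treated control islets, and to 2268 to 3738 CPM in untreated islets labelled bKO, against 4993 to 8094 CPM in untreated control islets. Untreated, 0 of the 12 were called between genotypes and 8 had an unadjusted p under 0.05 (median log2 -1.02), against 1099 of all 19800 genes. With cytokines 2 of 10 beta cell markers were called lower in islets labelled bKO and 8 had an unadjusted p under 0.05 (median log2 -0.69). Of 5 ductal markers 0 were called with cytokines and 3 had an unadjusted p under 0.05 (median log2 1.07), against 3530 of all 19800 genes. The part of these markers in the comparisons of genotypes was not tested. All 34 are read from the same 12 libraries, so their common sign is no count of independent observations.

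The start regions of 6 of these genes are shown because they stand for the range of responses, with 3 of the genes that rose by close to 2-fold or more (Psmd8, Psma7, Psmd4), 2 catalytic subunits with smaller values (Psmb6, Psmb5) and the gene that fell (Psmd6). The bases before each RefSeq transcription start are given 5' to 3' on the gene's strand, in GRCm38.p6, up to 250 bases and cut where the GENCODE M21 gene starts farther out. The windows are chr7:29180702-29180923 (minus strand) for Psmd8, chr2:180042465-180042714 (minus) for Psma7, chr3:95042615-95042864 (minus) for Psmd4, chr11:70525107-70525356 (plus) for Psmb6, chr14:54618023-54618245 (minus) for Psmb5 and chr14:14120985-14121195 (minus) for Psmd6. Capitals mark the matches to the motifs named after the sequences.
Psmd8: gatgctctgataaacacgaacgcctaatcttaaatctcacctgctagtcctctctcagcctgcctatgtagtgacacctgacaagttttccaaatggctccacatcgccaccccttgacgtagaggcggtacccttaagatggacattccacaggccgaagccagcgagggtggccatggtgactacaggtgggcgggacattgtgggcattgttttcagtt
Psma7: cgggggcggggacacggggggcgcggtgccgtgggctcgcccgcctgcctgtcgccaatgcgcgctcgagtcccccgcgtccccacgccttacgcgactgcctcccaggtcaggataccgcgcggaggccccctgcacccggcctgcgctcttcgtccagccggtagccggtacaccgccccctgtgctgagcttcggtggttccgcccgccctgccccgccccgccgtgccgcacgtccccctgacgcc
Psmd4: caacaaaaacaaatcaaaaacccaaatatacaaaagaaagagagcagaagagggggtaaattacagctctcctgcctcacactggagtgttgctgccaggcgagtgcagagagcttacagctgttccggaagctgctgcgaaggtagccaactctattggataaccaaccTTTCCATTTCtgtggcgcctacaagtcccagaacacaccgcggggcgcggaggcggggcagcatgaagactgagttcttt
Psmb6: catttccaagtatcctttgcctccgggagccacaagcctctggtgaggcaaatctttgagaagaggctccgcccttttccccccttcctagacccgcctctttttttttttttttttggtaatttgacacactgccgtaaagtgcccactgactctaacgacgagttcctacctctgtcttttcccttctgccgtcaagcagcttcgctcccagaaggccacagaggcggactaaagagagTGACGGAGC
Psmb5: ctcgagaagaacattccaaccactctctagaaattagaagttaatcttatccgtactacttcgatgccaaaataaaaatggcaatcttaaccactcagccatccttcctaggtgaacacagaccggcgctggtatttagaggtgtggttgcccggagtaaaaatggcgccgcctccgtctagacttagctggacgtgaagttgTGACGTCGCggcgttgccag
Psmd6: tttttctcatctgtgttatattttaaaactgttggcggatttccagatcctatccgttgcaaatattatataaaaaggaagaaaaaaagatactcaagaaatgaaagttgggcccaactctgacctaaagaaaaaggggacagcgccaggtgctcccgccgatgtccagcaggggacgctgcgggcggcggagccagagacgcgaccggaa

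RefSeq promoters could be matched for 29 of the 36 genes. They were searched on both strands, 250 bases before the start, for 3 motifs, which were chosen after other motifs had also been tried on these promoters. The core of the antioxidant response element, TGACNNNGC, bound by factors of the Nfe2l1 and Nfe2l2 family, was found in 5 of 29 (17.2%), Psmb5, Psmb6, Psmc6, Psmd9 and Psmd12, against 11.5% of 27025 RefSeq promoters. In Psmb6 the match ends at the base before the start and in Psmb5 it lies 47 to 39 bases before it. The core of the interferon-stimulated response element, GAAA, any 2 bases and GAAA again, was found in 3 of 29 (10.3%), Psmb3, Psmd4 and Psmd9, against 3.46%. In Psmd4 it lies on the opposite strand, 80 to 71 bases before the start. The gamma-activated site TTCNNNGAA, which reads the same on both strands, was found in 0 of 29, against 8.13%, and in 1 of the 3 immunoproteasome genes, Psmb8. Of the genes with a match, Psmd4 alone was among the larger changes, with log2 0.94 in islets labelled bKO and 0.92 in control islets. Psmb5, Psmb6 and Psmd12 had 0.49, 0.56 and 0.55 in islets labelled bKO and 0.40, 0.52 and 0.65 in control islets. Psmb3, Psmc6 and Psmd9 had 0.30, 0.25 and 0.27 in islets labelled bKO and 0.03, 0.14 and 0.11 in control islets. Psmd8 and Psmd6, with the largest rise and the fall, had no match. With matches this few, the shares are a description.

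Other genes of the pathway were followed as lists. Their counts stand against 28.8% of all genes called higher and 33.6% lower in islets labelled bKO. In control islets these shares were 26.8% and 33.9%. All 3 immunoproteasome genes rose, with log2 values above that of every constitutive gene, Psmb9 by log2 3.64 in islets labelled bKO and 4.13 in control islets, Psmb8 by 3.36 in islets labelled bKO and 3.62 in control islets and Psmb10 by 2.74 in islets labelled bKO and 3.05 in control islets. Psmb8 had a mean of 346 CPM in treated and 33.7 in untreated islets labelled bKO, and 363 in treated and 29.4 in untreated control islets. Of the 5 genes for activators and the inhibitor of the core, 4 rose and 1 fell in both genotypes. Psme1 and Psme2, which form the interferon-induced cap known to speed peptide release, rose by log2 2.21 in islets labelled bKO and 2.39 in control islets for Psme1 and 2.69 in islets labelled bKO and 2.92 in control islets for Psme2, where a close copy, Psme2b, makes the assignment of reads uncertain. The one that fell, named after its values were seen, was Psme4, the activator linked to chromatin, at -0.67 (standard error 0.138, adjusted p = 0.0013) in islets labelled bKO and -0.85 (standard error 0.139, adjusted p = 0.00025) in control islets. Of 5 measured chaperones of core assembly, 2 rose and 0 fell in islets labelled bKO, and 2 rose and 1 fell in control islets. Pomp, which brings parts of the core together, had 148, 144 and 135 CPM in cytokine-treated islets labelled bKO, against 62.9, 63.0 and 66.9 CPM in untreated islets labelled bKO, and 144, 139 and 129 CPM in cytokine-treated control islets, against 61.3, 63.0 and 62.5 CPM in untreated control islets, with no overlap and a log2 fold change of 1.15 (standard error 0.062, adjusted p = 4.4e-08) in islets labelled bKO and 1.14 (standard error 0.062, adjusted p = 4.7e-08) in control islets. Psmg4 rose by 0.86 in islets labelled bKO and 0.69 in control islets. The list's median, 0.12 in islets labelled bKO and 0.01 in control islets, turned to -0.11 and -0.22 with library totals alone.

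Of 14 associated and shuttle proteins 9 rose and 2 fell in both genotypes (6 and 5 rose and 4 fell with library totals alone). With library totals alone, 4000 of all 19800 genes were called higher and 8692 lower in islets labelled bKO. In control islets these were 3737 and 8998. Zfand2a, a stress-induced partner of the regulatory particle, rose by log2 1.62 in islets labelled bKO and 1.85 in control islets, and Rad23b, which ferries ubiquitin-tagged proteins, by 0.83 in islets labelled bKO and 0.85 in control islets. Of 8 genes that control the supply of proteasomes, 4 rose and 1 fell in islets labelled bKO and 5 rose and 1 fell in control islets. The median was 0.20 and 0.25, and -0.03 and 0.02 with library totals alone, where 3 rose and 2 fell in islets labelled bKO and 3 rose and 3 fell in control islets. Nfe2l1, the transcription factor known to induce proteasome subunit genes when protease activity is short, had 728, 621 and 731 CPM in cytokine-treated islets labelled bKO, against 356, 360.4 and 375 CPM in untreated islets labelled bKO, and 740.5, 734 and 746 CPM in cytokine-treated control islets, against 383, 344 and 358 CPM in untreated control islets. The groups did not overlap, and its log2 fold change was 0.93 (standard error 0.077, adjusted p = 1.3e-06) in islets labelled bKO and 1.03 (standard error 0.078, adjusted p = 6.3e-07) in control islets. Ngly1, the enzyme that removes the sugars of that factor, rose by 0.69 in islets labelled bKO and 0.76 in control islets, and Nfe2l2, its relative in the oxidative stress response, by 1.02 in islets labelled bKO and 0.68 in control islets. Of 6 genes of ubiquitin and its activating enzymes 4 rose and 0 fell in both genotypes (3 rose and 1 fell with library totals alone). Ubb, a polyubiquitin gene, rose by 1.12 in islets labelled bKO and 1.12 in control islets, and Rps27a, a fusion of ubiquitin to a ribosomal protein, by 0.77 in islets labelled bKO and 0.58 in control islets. No gene of these lists was called between genotypes or in the difference between the responses. An unadjusted p under 0.05 was held by 3 of the 3 immunoproteasome genes untreated (log2 0.19 to 0.22, bKO over control). With cytokines 1 of the 3 held it (the 3 ran from -0.28 to -0.07), and in the difference 2 of the 3 (-0.49 to -0.26). In the other lists it was held untreated by 1 of the 8 genes that control the supply of proteasomes. With cytokines it was held by 2 of the 6 ubiquitin genes and 1 of the 5 activator genes. In the difference it was held by 2 of the 8 supply genes. Of all 19800 genes, 1099, 3530 and 2162 held it in the untreated comparison, with cytokines and in the difference (edgeR quasi-likelihood test).

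**Figure D5:**
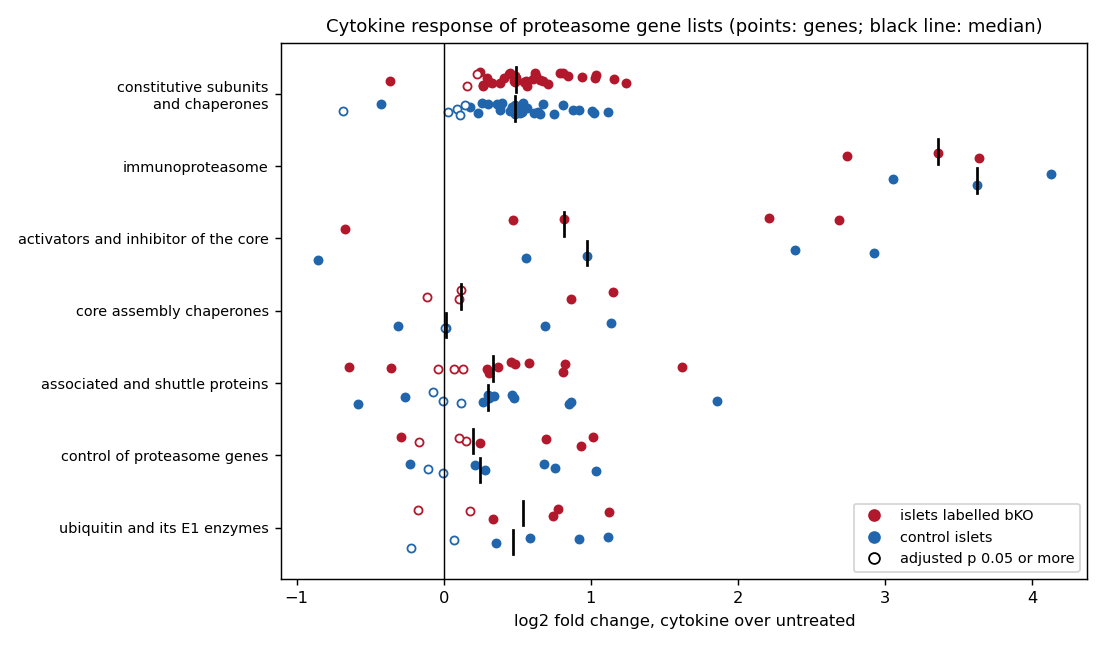
Log2 fold change (horizontal axis, cytokine over untreated) of the genes of each list in islets labelled bKO (red) and control islets (blue), with filled points for an adjusted p under 0.05 and a black line for the list's median. The 35 constitutive genes lie between -0.68 and 1.24. The lowest value is that of Psma8 in control islets, with 4 to 20 counts a library and not called, and the next is Psmd6 at -0.43. The 3 immunoproteasome genes lie between 2.74 and 4.13, and the activators hold both Psme2 (2.69 and 2.92) and Psme4 (-0.67 and -0.85). With library totals alone the medians of the core assembly chaperones turn below 0 in both genotypes, and that of the control genes in islets labelled bKO.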

How the data were processed

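RNA of 12 islet libraries was sequenced on a NovaSeq. The submitters' processing notes name STAR 2.5.2a, featureCounts 1.6.2, cutadapt 1.16, DESeq2 1.30.0 and FastQC 0.11.7 and the build GRCm38, without the annotation release or the strand setting. The authors deposited whole-number counts per gene for 55536 genes, and a table of the 26532 genes with a total of 10 or more, which holds the same values. Counts were tested with edgeR 4.0.16 in R 4.3.3 (filterByExpr, which kept 19800 genes, TMM scaling, a coefficient for each of the 4 groups, quasi-likelihood test, Benjamini-Hochberg adjustment over all genes tested). Shares and sums were compared by exact two-sided permutation. The members and lists were chosen with earlier results of these data known. All members are accounted for. Values in every library are given for the catalytic, tissue-specific and base chaperone genes, Psmd4, Psmd14 and, in each part of the particle, the 2 genes with the smallest adjusted p in each direction in control islets, and each other list names up to 2 by the same measure (1 of them is not reported here) beside Pomp, Nfe2l1, Psme1, Psme2 and the immunoproteasome. The fuller values of Psmb1, Psmb3, Psmc6 and Psmd1, and Psme4, were chosen after they were seen. Alternatives were other scalings, filters and tools (DESeq2 1.42.0, limma 3.58.1), leaving out each library, and a block for the replicate number. The script was tested on simulated data. Transcript lengths came from GENCODE M21 and promoter sequences from RefSeq, GRCm38.p6.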

Additional observations from a re-analysis of the deposited data

How the results depend on the processing

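The number of constitutive proteasome genes called higher with cytokines was 29 to 33 in islets labelled bKO and 26 to 32 in control islets under other filters, tools, thresholds and size factors, and 25 and 21 with library totals alone. It was 29 to 32 in islets labelled bKO and 27 to 32 in control islets on leaving out each library, and 1 gene was called lower throughout. The median log2 fold change moved to 0.56 in islets labelled bKO and 0.58 in control islets with DESeq2 size factors and likewise in DESeq2's own test (0.561 and 0.578), to 0.258 and 0.257 with library totals alone, and to 0.55 in control islets with the compared groups only. Without 1 library it ran from 0.458 to 0.582 in islets labelled bKO and from 0.475 to 0.559 in control islets. With library totals alone the summed level was 0.442% in treated and 0.345% in untreated islets labelled bKO, and 0.423% in treated and 0.344% in untreated control islets. Not divided by length, the shares in treated bKO, untreated bKO, treated control and untreated control islets were 48.6%, 10.1%, 54.0% and 8.77% for Psmb9, which then is the larger of its pair in treated control islets, and 82.6%, 39.2%, 84.3% and 36.4% for Psmb8, and those of Psmb10 that moved beyond their SD were 33.0% in untreated bKO, 74.95% in treated control and 29.0% in untreated control islets. The cause of these shifts was not tested, beyond what the scalings themselves change. Of the values under alternatives for the genes chosen by the naming rule, which leaves out Psmb1, Psmb3, Psmc6 and Psmd1 among others, 1537 kept direction and call, 21 lost the call, 2 gained it and 1 reversed, Psmb7 in control islets with library totals alone (log2 -0.049, adjusted p = 0.57). Comparisons of genotypes and of responses called 0 constitutive genes under every alternative run. Replicate numbers in the titles are shared between treated and untreated libraries, while the count columns number the libraries of a genotype on without a break. Same-numbered libraries did not deviate together (correlations of -0.03, 0.09 and 0.10 in islets labelled bKO and -0.10, 0.05 and -0.03 in control islets), so they are not taken as pairs. Other assignments ran from -0.18 (treated control 2 with untreated control 3) to 0.20 (treated control 1 with untreated control 3). These correlations do not settle which libraries share a mouse. With the replicate number as a block, 32 genes rose and 1 fell in islets labelled bKO and 28 rose and 1 fell in control islets, with medians of 0.49 in both. Levels of Psma8 and Psmb11 are too low for these depths to show a change of the size seen in the others.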
